A study of Mus musculus with 18 samples.

Results

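Fatty acid metabolism was described through 35 genes, chosen by name, out of 23924 genes read in astrocytes from the mouse primary motor cortex (M1). These genes were chosen with earlier results of these data known. They cover the activation of fatty acids (6 acyl-CoA synthetases), their synthesis (4 genes), desaturation (4), elongation (6), binding, uptake and release (4), the carnitine shuttle (4), beta oxidation (6) and 1 regulator, Ppara. All 35 were in the table and passed the filter on low values, so each was tested.

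Cells build saturated fatty acids from acetyl-CoA in the cytosol, introduce double bonds with desaturases and lengthen the chains with elongases in the endoplasmic reticulum. Acyl-CoA synthetases join a fatty acid to coenzyme A, which is needed before it enters membrane lipids or is degraded, and the carnitine shuttle moves the acyl chain into mitochondria for beta oxidation. In the brain, astrocytes make lipids that neurons use and carry out much of the oxidation of fatty acids.

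The 18 libraries came from wild-type C57BL/6 mice, with 6 per group. Naive mice were untrained and labelled 12 to 21 weeks old. Novice mice had 3 days of training on a lever push task rewarded with water, after water restriction, and were labelled 11 to 13 weeks old. Expert mice, labelled 13 to 15 weeks old, were fully trained on the same task. Each group held 2 libraries labelled female and 4 labelled male. The expert mice's number of training days, any water restriction of the naive mice and the way of isolating the astrocytes were not given in the sources used here. Nor do the labels say that each library was a separate animal, so p-values measure the spread between these libraries.

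Several features of the libraries bear on every value that follows. Xist, transcribed from the inactive X chromosome, and Ddx3y, a gene of the Y chromosome, went against the labelled sex of novice 1 (labelled female, Xist 1.60 and Ddx3y 12.6 FPKM) and novice 3 (labelled male, Xist 17.97 and Ddx3y 3.29 FPKM), so they are the libraries labelled novice 1 and novice 3. FPKM are fragments per kilobase of transcript, scaled to library size. The mean over 1593 genes that brain cells hardly use, such as olfactory receptors, here called the silent-gene background, ranged from 0.305 to 3.32 FPKM in 10 libraries (naive 1 to 4, novice 1 and 2, expert 1, 2, 3 and 6) and from 4.66 to 6.72 FPKM in the other 8. Novice libraries were thus mostly of higher background (4 of 6) and naive and expert libraries mostly of lower (4 of 6 each). The FPKM worth of 1 fragment on a transcript of 1 kb, an approximate measure of depth, ran from 0.285 in expert 3, the deepest, to 1.88 in naive 6. All 14 astrocyte markers were at 8.12 FPKM or more in every library, and neuronal markers were present too (Camk2a 36.2 to 703 FPKM, Snap25 25.6 to 227 FPKM). Markers of other cells reached 136 FPKM (Flt1, endothelial), 197 FPKM (Rgs5, pericyte), 159 FPKM (Mbp, oligodendrocyte) and 40.0 FPKM (Cx3cr1, microglia). The brain cytoplasmic RNA Bc1 held 18.4 to 59.6% of summed FPKM in libraries of lower background and 6.01 to 19.2% in those of higher.

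Promoter windows are shown for 5 members, to place the genes named below beside the sequence at their starts. Windows of 300 bases, from 250 before the start to 50 after it, came from RefSeq (build GRCm38.p6), which is not the build of the deposited values. RefSeq gave 35 windows for 28 of the 35 members. Capitals mark CCAAT boxes, the letters CCAAT or ATTGG on the opposite strand, and in Elovl5 also an E-box (CACGTG). Fasn is the multifunctional synthase that makes palmitate, and its window (chr11:120824498-120824797, minus strand) holds 3 CCAAT boxes, of which a pair overlap. Elovl5 lengthens polyunsaturated chains (chr9:77917115-77917414, plus strand). Acsbg1 is an acyl-CoA synthetase for very long chains (chr9:54661836-54662135, minus strand), and Fabp7 is a brain fatty acid binding protein (chr10:57784673-57784972, plus strand). Hadha encodes the alpha subunit of the mitochondrial trifunctional protein (chr5:30154931-30155230, minus strand).
Fasn: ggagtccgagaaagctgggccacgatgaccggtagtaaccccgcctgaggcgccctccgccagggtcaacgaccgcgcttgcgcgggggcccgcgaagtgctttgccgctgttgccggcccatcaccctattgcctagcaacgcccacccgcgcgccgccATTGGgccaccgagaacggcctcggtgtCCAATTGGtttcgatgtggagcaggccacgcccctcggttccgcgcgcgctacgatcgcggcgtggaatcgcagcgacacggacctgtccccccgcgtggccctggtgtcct
Elovl5: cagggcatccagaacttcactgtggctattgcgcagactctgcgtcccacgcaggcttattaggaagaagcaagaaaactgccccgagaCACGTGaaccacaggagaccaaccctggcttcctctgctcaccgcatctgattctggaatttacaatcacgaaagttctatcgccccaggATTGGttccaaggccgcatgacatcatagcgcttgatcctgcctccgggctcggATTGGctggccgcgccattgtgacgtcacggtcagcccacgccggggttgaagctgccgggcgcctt
Acsbg1: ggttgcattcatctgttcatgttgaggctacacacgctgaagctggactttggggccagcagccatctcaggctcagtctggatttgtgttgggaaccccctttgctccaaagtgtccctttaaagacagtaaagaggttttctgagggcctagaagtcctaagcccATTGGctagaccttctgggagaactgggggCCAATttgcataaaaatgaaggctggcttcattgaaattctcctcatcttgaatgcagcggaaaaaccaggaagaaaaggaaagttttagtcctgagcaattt
Fabp7: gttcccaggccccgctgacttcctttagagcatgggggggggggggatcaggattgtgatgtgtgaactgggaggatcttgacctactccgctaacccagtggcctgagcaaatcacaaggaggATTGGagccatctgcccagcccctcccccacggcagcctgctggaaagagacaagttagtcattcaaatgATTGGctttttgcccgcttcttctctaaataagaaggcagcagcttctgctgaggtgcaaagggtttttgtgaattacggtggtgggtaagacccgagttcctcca
Hadha: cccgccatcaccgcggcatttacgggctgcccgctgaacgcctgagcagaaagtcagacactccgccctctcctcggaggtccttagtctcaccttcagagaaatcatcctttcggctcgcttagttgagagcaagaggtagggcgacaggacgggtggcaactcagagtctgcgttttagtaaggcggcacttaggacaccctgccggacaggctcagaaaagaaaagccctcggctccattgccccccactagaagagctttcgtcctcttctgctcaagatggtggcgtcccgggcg
The Hadha window shares 228 bases with that of Hadhb, which encodes the beta subunit and runs the other way from a start 273 bases off. A CCAAT box was found on either strand in 16 of the 35 member windows (14 genes) and in 37.4% of all 32851 windows. The E-box CACGTG was in 2 member windows (Elovl5 and Slc27a1) against 7.15% of all, and the GC box GGGCGG in 22 against 35.7%. The sterol regulatory element TCACNCCAC was in 1 window, of Acsl1, against 1.24% of all. The direct repeat AGGTCANAGGTCA, the type bound by Ppara with its partner, was in 0 of 35 member windows and in 0.0396% of all, which says only that these letters are not in these windows. Both strands were searched for every motif.

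Most fatty acid transcripts stood lower in novice than in naive libraries and higher in expert than in novice libraries, but no member passed the test. In novice against naive, 26 of the 35 had a negative log2 fold change, with a median of -0.28, while 43.0% of all tested genes were lower and their median was 0.07. In expert against novice, 26 of 35 were higher and 9 lower, with a median of 0.29, while 59.6% of all genes were lower and their median was -0.14. In expert against naive, 11 were lower and 24 higher, with a median of 0.16, while 56.1% of all genes were lower and their median was -0.05. These comparisons share libraries, so their directions are not independent of one another.

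The limma test on log2(FPKM + 1) with Benjamini-Hochberg adjustment called 0 of 35 members in each comparison, and 0% of the 21745 genes. At an unadjusted p under 0.05, 2 members passed in novice against naive, where 4.60% of all genes did. In expert against naive 1 member passed, against 2.86% of all genes. In expert against novice 8 members passed, against 10.9% of all genes. Of these members 7 were higher (20% of the 35), where 4.88% of all genes passed and were higher. The remaining 1 was lower (2.86%), where 5.97% of all genes passed and were lower. Abundant genes passed more often in expert against novice, counted in either direction. With a median of at least 20 FPKM, 5 of 14 members and 292 of all 1976 genes passed, as did 6 of 14 astrocyte markers. No member had groups wholly apart in any comparison, whereas 0.129% of all genes had in novice against naive, 0.0782% in expert against naive and 0.432% in expert against novice. Across 3947 member results under 39 alternative settings, 0 were called, with adjusted p (limma) from 0.106 to 1. The heat map of levels shows the members by library, and the plot of fold changes gives their standard errors.

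**Figure D1:**
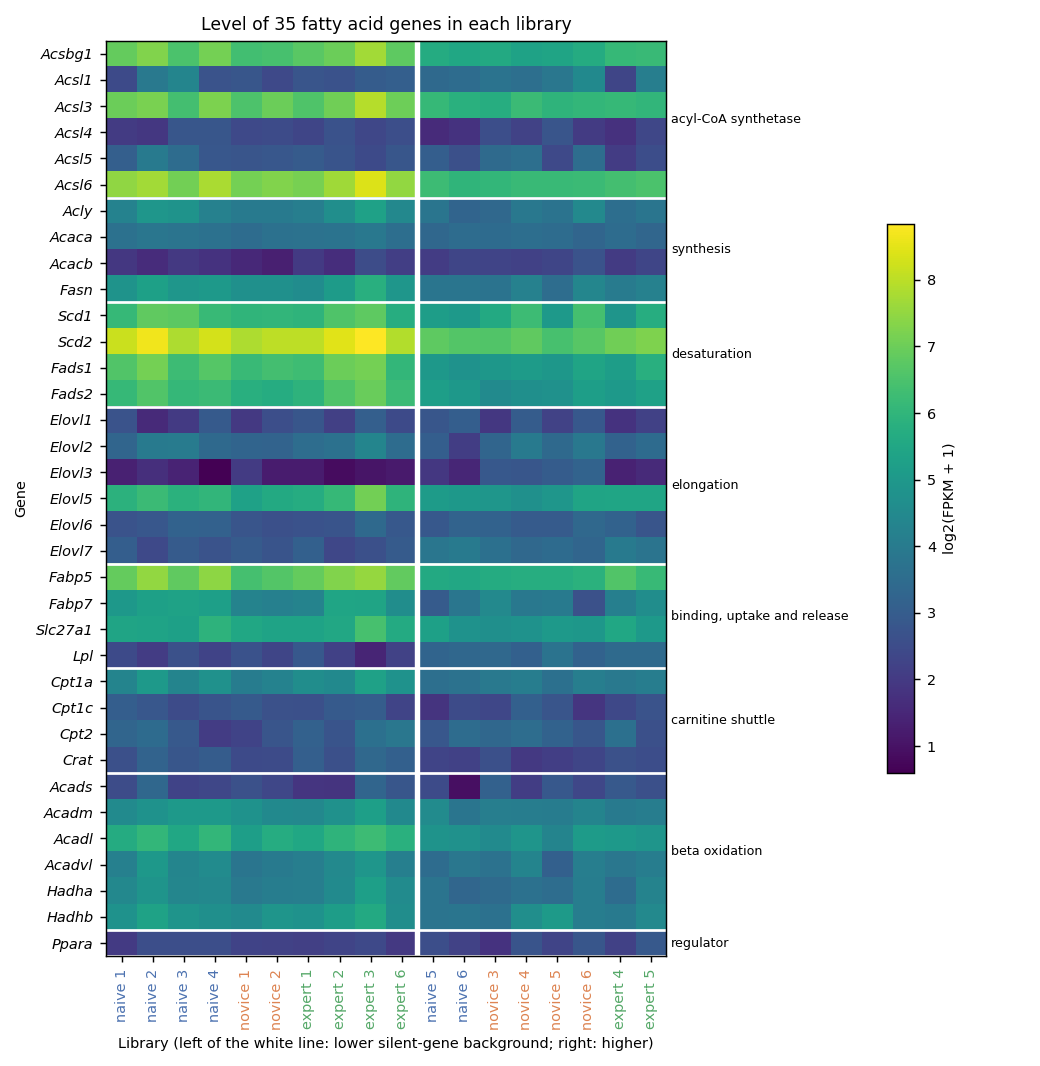
Level of each of the 35 genes (rows, grouped by role) in each of the 18 libraries (columns, named in the colour of their group), as log2(FPKM + 1). The 10 libraries left of the white line have lower silent-gene background and the 8 to its right higher, and Scd2, Acsl6, Acsl3, Acsbg1 and the Fads genes are brighter on the left.

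**Figure D2:**
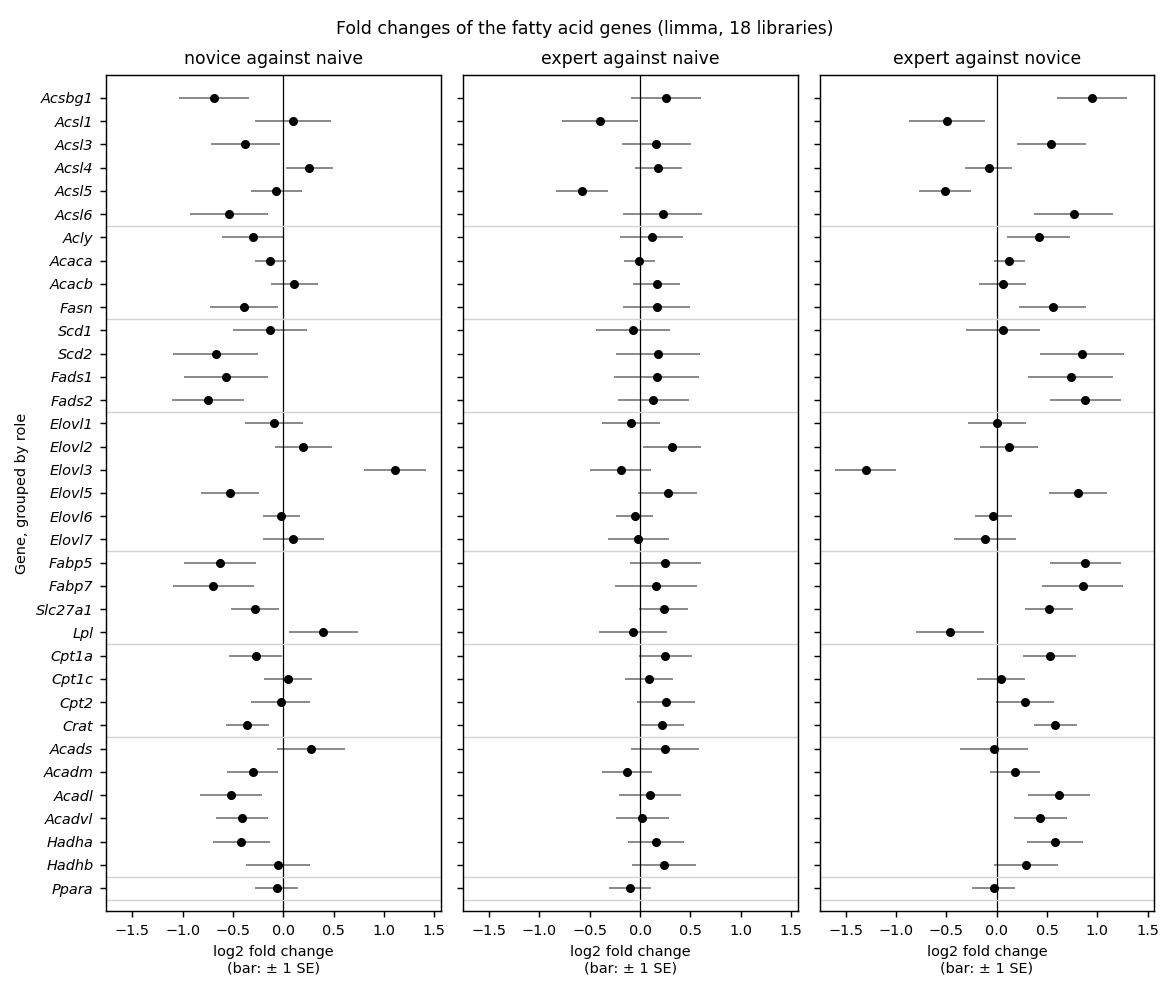
Log2 fold change of each of the 35 genes in the 3 comparisons, from limma on 18 libraries, with bars of 1 standard error. In novice against naive 26 points lie below 0, and in expert against novice 26 lie above 0.

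The differences were larger among the abundant members. Of the 14 members with a median of at least 20 FPKM, all 14 were lower in novice than in naive libraries, with a median of -0.53, and all 14 were higher in expert than in novice, with a median of 0.68. Among all 1976 genes of that abundance, 69.0% were lower in novice than in naive (median -0.21) and 32.7% lower in expert than in novice (median 0.25). Of the 21 less abundant members, 12 were lower in novice than in naive, with a median of -0.03. In libraries of higher background the silent-gene mean averaged 5.84 FPKM. Acsl4, Acacb, Elovl1, Elovl3, Cpt1c, Crat, Acads and Ppara averaged 3.56 to 4.90 FPKM there. On average these members were thus not above silent genes in those libraries. With median ratio scaling between libraries, the members lower in novice than in naive numbered 21, and those lower in expert than in novice 15.

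Astrocyte markers moved in the same directions. In novice against naive 14 of 14 were lower (median -0.59), in expert against novice 14 of 14 higher (median 0.76), and in expert against naive 14 of 14 higher (median 0.19). Their mean level per library, in log2(FPKM + 1), ran from 5.71 to 6.77 in novice, 5.63 to 7.39 in naive and 6.11 to 7.88 in expert libraries. Over the 8 libraries of higher background, which hold 4 of the 6 novice libraries, 14 of 14 astrocyte markers were lower than over the other 10 (median -1.14). Neuronal markers were lower there too (9 of 10, median -1.33), as were 72.2% of all genes of at least 20 FPKM. Of the endothelial markers 4 of 10 were (median 0.04). In these bulk samples, fewer astrocytes, less RNA per astrocyte and a library-wide difference that follows the background class cannot be told apart. With the mean of the astrocyte markers as a covariate, the members' median became -0.03 for novice against naive and -0.01 for each of the other comparisons. Markers of other cell types moved too. In expert against naive 10 of 10 endothelial markers (median 0.61), 8 of 8 of pericytes and smooth muscle (0.45) and 6 of 6 of oligodendrocyte precursors (0.27) were higher. Lower were 9 of 10 neuronal (-0.20), 7 of 8 oligodendrocyte (-0.24) and 7 of 10 microglial markers (-0.10). In expert against novice 10 of 10 endothelial (0.53), 7 of 8 pericyte and smooth muscle (0.41) and 6 of 6 precursor markers (0.62) were higher. Of the microglial markers 6 of 10 were lower (-0.36). In novice against naive 5 of 10 endothelial (0.01), 4 of 8 pericyte and smooth muscle (-0.01) and 3 of 10 microglial markers (0.14) were lower. So were 8 of 10 neuronal (-0.18), 5 of 8 oligodendrocyte (-0.17) and 5 of 6 precursor markers (-0.33). The part of these markers in the members' values was not tested.

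Of the acyl-CoA synthetases, Acsl6, Acsl3 and Acsbg1 were abundant and the other members were not. Acsl6, which activates long polyunsaturated chains and is enriched in brain, was the most abundant of them, with a lowest, median and highest level of 62.5, 155 and 219 FPKM in naive, 65.4, 72.8 and 153 FPKM in novice and 82.5, 160 and 338 FPKM in expert libraries. Its groups overlapped, and the log2 fold change of expert against novice was 0.76 ± 0.39 (SE). Acsbg1 stood at 44.0, 103 and 156 FPKM in naive, 40.1, 48.8 and 85.8 FPKM in novice and 68.4, 108 and 207 FPKM in expert libraries. The 2 lowest expert libraries lay within the novice range, and expert against novice gave 0.95 ± 0.35 (limma, unadjusted p = 0.0134, adjusted p = 0.449). Novice against naive gave -0.69 ± 0.35 for Acsbg1. Acsl3, which serves lipid droplets, followed the same order, with medians of 105, 68.8 and 112 FPKM in naive, novice and expert libraries. Acsl4, which prefers arachidonic acid, had medians of 2.94, 4.46 and 4.06 FPKM.

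Acsl1 and Acsl5, both long-chain synthetases, had their lowest medians in expert libraries. Acsl5 stood at 5.05, 7.48 and 14.6 FPKM in naive, 4.37, 8.01 and 11.2 FPKM in novice and 3.21, 5.30 and 6.74 FPKM in expert libraries. Every expert library was below the naive and novice medians. Its log2 fold change of expert against naive was -0.58 ± 0.26 (limma, unadjusted p = 0.0358, adjusted p = 0.9996), between -0.70 without naive 6 and -0.42 without naive 2. It was -0.61 among libraries of lower background and -0.52 among those of higher background. In expert 4 Acsl5 was 3.21 FPKM, with a silent-gene mean of 5.96 FPKM, and in expert 5 it was 4.86 against 4.66 FPKM. Acsl1 had medians of 10.1, 11.8 and 6.42 FPKM, with 1 expert library at 16.5 FPKM.

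The enzymes of synthesis were moderate in level. Acly, which makes cytosolic acetyl-CoA from citrate, had medians of 17.8, 14.2 and 18.5 FPKM in naive, novice and expert libraries. Acaca, the acetyl-CoA carboxylase that makes malonyl-CoA for synthesis, varied least, at 9.20, 11.7 and 13.4 FPKM in naive, 8.80, 10.3 and 11.6 FPKM in novice and 8.98, 11.5 and 14.0 FPKM in expert libraries. Its 3 groups nearly coincided, and the fold changes were -0.13 ± 0.15 for novice against naive and -0.01 ± 0.15 for expert against naive. Acacb, the carboxylase at the mitochondrial membrane, stood at 0.304 of the Acaca level (median over 18 libraries, per length). Fasn had 28.4, 18.9 and 26.4 FPKM as medians, and expert against novice gave 0.56 ± 0.33.

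The desaturases held the highest level of the set. Scd2, the stearoyl-CoA desaturase of brain, which puts the first double bond into saturated chains, stood at 99.0, 260 and 405 FPKM in naive, 85.0, 108 and 258 FPKM in novice and 132, 246 and 458 FPKM in expert libraries. In each group the libraries of higher background were the low ones, and the groups overlapped (novice against naive -0.67 ± 0.42, expert against novice 0.85 ± 0.42). Its paralog Scd1 had medians of 69.1, 63.1 and 56.7 FPKM and fold changes no further from 0 than 0.13 in size. The ratio of Scd1 to Scd2 was 0.298, 0.436 and 0.239 at the median in naive, novice and expert libraries, with a range of 0.217 to 0.819 over all. No source used here says how reads shared by these similar genes were counted.

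Fads1 and Fads2, the delta-5 and delta-6 desaturases that make polyunsaturated fatty acids, had a ratio of 1.30 (median, with 0.858 to 1.58 over 18 libraries). Fads2 stood at 30.8, 67.7 and 97.2 FPKM in naive, 22.4, 31.1 and 54.5 FPKM in novice and 32.1, 66.5 and 122 FPKM in expert libraries. Each novice library was below the naive median, and 2 expert and 2 naive libraries were in the novice range. Novice against naive gave -0.75 ± 0.35 (limma, unadjusted p = 0.0476, adjusted p = 0.890) and expert against novice 0.88 ± 0.35 (unadjusted p = 0.0222, adjusted p = 0.449). Leaving out 1 library at a time kept the novice against naive value between -0.92 (without naive 6) and -0.60 (without naive 2). The unadjusted p (limma) then rose to as much as 0.115. Over all 38 alternatives for this comparison the value ran from -1.04 to -0.21.

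Among the elongases, Elovl5 was the most abundant and Elovl3 the least. Elovl5 stood at 31.2, 57.7 and 72.8 FPKM in naive, 25.5, 34.2 and 47.5 FPKM in novice and 42.5, 56.1 and 134 FPKM in expert libraries. Expert 3 alone held the 134 FPKM, and expert against novice gave 0.81 ± 0.29 (limma, unadjusted p = 0.0118, adjusted p = 0.449). Elovl2, which lengthens long polyunsaturated chains toward docosahexaenoic acid, had medians of 9.20, 9.22 and 10.5 FPKM. Elovl1, Elovl6 and Elovl7, elongases of saturated and very long chains, had medians between 4.03 and 9.04 FPKM in the 3 groups, with no fold change further from 0 than 0.12 in size.

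Elovl3, an elongase best known in skin glands and brown fat, had the smallest unadjusted p of the members and went against most of them in both comparisons with novice libraries. It stood at 0.510, 1.71 and 2.82 FPKM in naive, 1.35, 6.11 and 8.21 FPKM in novice and 0.840, 1.29 and 2.01 FPKM in expert libraries. In 5 of 6 novice libraries it was above every naive and expert library, and novice 2 was within their range. Novice against naive gave 1.11 ± 0.31 (limma, unadjusted p = 0.00177, adjusted p = 0.890) and expert against novice -1.30 ± 0.31 (unadjusted p = 0.00041, adjusted p = 0.449). Leaving out 1 library at a time gave 0.95 to 1.37 for the former and -1.56 to -1.17 for the latter. The values rest on few fragments, about 0.888 to 5.35 per naive, 3.56 to 12.3 per novice and 1.78 to 7.12 per expert library. They are also of the order of the silent-gene mean or below it in libraries of higher background. Each novice library of that class had Elovl3 above its silent-gene mean, and each naive and expert library of that class had it below. There Elovl3 was 5.89 to 8.21 FPKM in novice libraries, with a silent-gene mean of 5.07 to 6.18 FPKM. It was 1.78 to 2.82 FPKM in naive (silent-gene mean 6.66 to 6.72) and 1.62 to 2.01 FPKM in expert libraries (4.66 to 5.96). Within libraries of higher background the differences were 1.26 and -1.48, and within those of lower background 0.37 and -0.55.

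**Figure D3:**
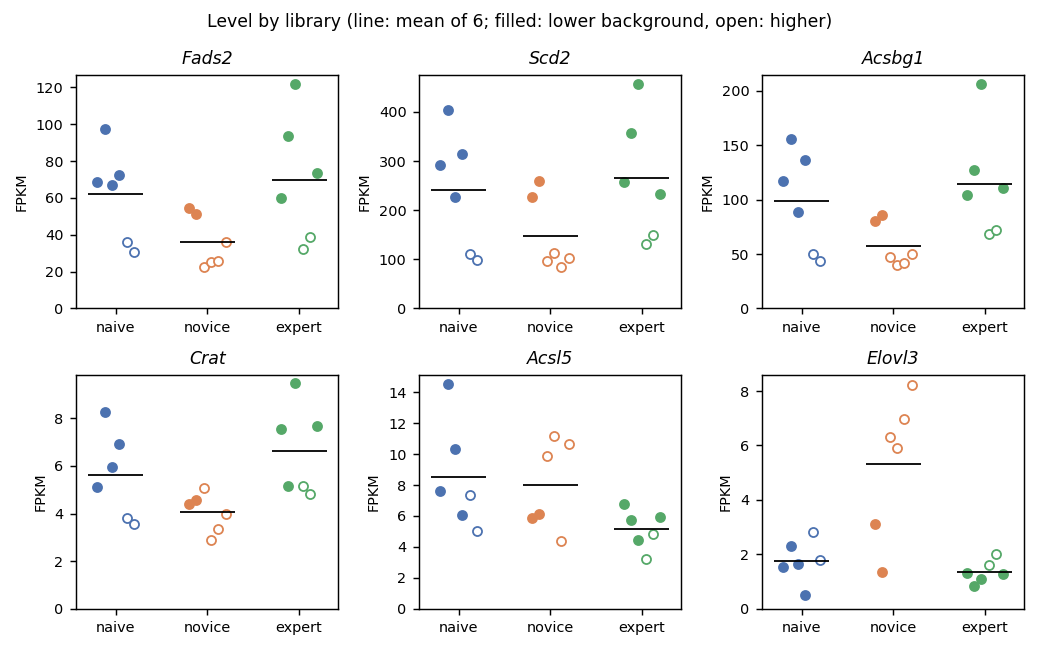
FPKM of 6 members in every library by group, with a line at the mean of 6 libraries, filled points for lower and open points for higher silent-gene background. Fads2, Scd2 and Acsbg1 are high in the filled points of each group, while 5 of 6 novice libraries stand above all others for Elovl3.

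Of the genes of binding, uptake and release, Fabp5 and Fabp7, small proteins that carry fatty acids through the cytosol, had their lowest medians in novice libraries. Fabp5 stood at 45.8, 115 and 182 FPKM in naive, 49.5, 55.1 and 98.9 FPKM in novice and 70.8, 116 and 186 FPKM in expert libraries. The ranges overlapped, and expert against novice gave 0.88 ± 0.35 (limma, unadjusted p = 0.0222, adjusted p = 0.449). Fabp5 has processed pseudogenes, and the counting of reads shared with them is likewise not given in the sources used here. Fabp7 had medians of 33.7, 15.9 and 23.9 FPKM, and expert against novice gave 0.85 ± 0.41. The transporter Slc27a1, which brings fatty acids into cells, had medians of 39.5, 31.0 and 45.2 FPKM, and expert against novice gave 0.52 ± 0.24. Lpl, the lipase that releases fatty acids from lipoproteins, had medians of 4.85, 7.94 and 5.01 FPKM and ran the other way (novice against naive 0.40 ± 0.34).

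In the carnitine shuttle, Cpt1a, the rate-setting carnitine acyltransferase of the outer mitochondrial membrane, was the most abundant. It stood at 11.3, 19.1 and 31.6 FPKM in naive, 11.4, 15.9 and 17.9 FPKM in novice and 14.2, 22.7 and 38.8 FPKM in expert libraries, and expert against novice gave 0.53 ± 0.26. Crat, which moves short acyl groups to carnitine, stood at 3.55, 5.54 and 8.26 FPKM in naive, 2.88, 4.204 and 5.07 FPKM in novice and 4.83, 6.36 and 9.50 FPKM in expert libraries. The highest novice library was above the lowest expert library, the other 5 novice libraries were below every expert library, and expert against novice gave 0.58 ± 0.21 (limma, unadjusted p = 0.0140, adjusted p = 0.449). Crat was 0.60 higher among libraries of lower and 0.33 higher among those of higher background. In the latter it averaged 4.08 FPKM, under the average silent-gene mean of 5.84 FPKM. Cpt1c, the neuronal form, and Cpt2, the inner membrane enzyme, had medians between 5.10 and 9.62 FPKM, with fold changes of at most 0.28 in size.

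Beta oxidation was led by Acadl, the long-chain acyl-CoA dehydrogenase, at 26.4, 46.9 and 65.6 FPKM in naive, 18.8, 31.4 and 50.5 FPKM in novice and 28.5, 50.2 and 75.7 FPKM in expert libraries. Novice against naive gave -0.52 ± 0.31 and expert against novice 0.62 ± 0.31. Acadvl, for very long chains, gave -0.41 ± 0.26 and 0.43 ± 0.26, and Acadm, for medium chains, -0.31 ± 0.25 and 0.18 ± 0.25. Hadha and Hadhb, which share a start region, had a ratio of 0.714 at the median and 0.325 to 1.01 over 18 libraries. Some of these ratios rest on few fragments, such as about 28.8 for Hadha and 45.2 for Hadhb in novice 5. Whether the ratio differed between libraries beyond counting noise was not tested. Acads, for short chains, had medians of 4.31, 4.67 and 5.54 FPKM. Ppara, the nuclear receptor that switches on oxidation genes, had medians of 4.92, 3.82 and 3.72 FPKM and fold changes of at most 0.10 in size.

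The members' level also followed the class of background, as the plot against silent genes shows. Described without a test, 26 of the 35 were lower in the 8 libraries of higher background, with a median log2 difference of -0.57, while 36.0% of all genes were lower and their median was 0.37. Of the 14 members of at least 20 FPKM, 14 were lower (median -1.01), and over all genes of that abundance 72.2% were (median -0.79). So were 14 of 14 astrocyte markers (-1.14) and 9 of 10 neuronal markers (-1.33). Acsbg1, Acsl3, Acsl6, Fasn, Scd2, Fads1, Fads2 and Acadl were higher in each library of lower background than in any of higher background, as were 5.89% of all genes and 35.7% of those of at least 20 FPKM. Elovl7 and Lpl were lower in each of them, as were 6.73% of all genes. In the mean over the 35 members, expert 3 was the highest library at 4.85 and naive 6 the lowest at 3.73, in log2(FPKM + 1).

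**Figure D4:**
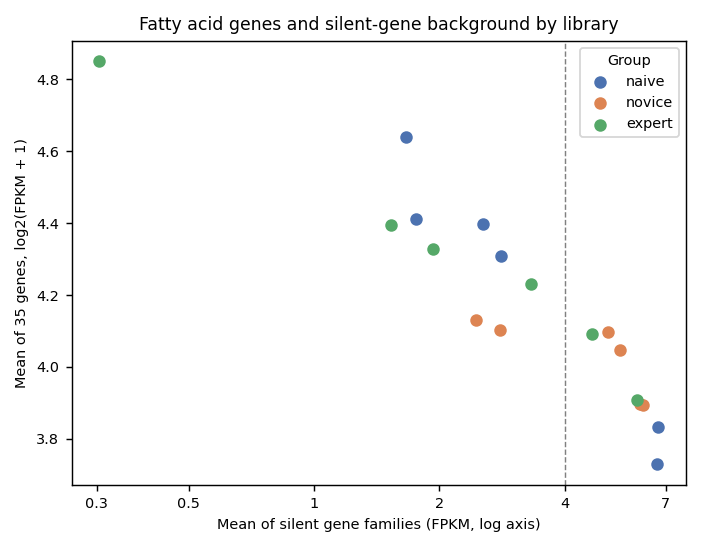
Mean log2(FPKM + 1) of the 35 genes in each library against the mean FPKM of silent gene families (log axis), coloured by group, with a dashed line at 4 FPKM. Libraries right of the line lie at or below 4.10 on the vertical axis, and those to its left lie between 4.10 and 4.85.

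The group differences were not alike in the 2 classes of background. Among libraries of lower background 30 of 35 members were lower in novice than in naive (median -0.37), whereas among those of higher background 9 were (median 0.12). Expert against novice had medians of 0.38 and 0.09 in the lower and higher class, and expert against naive 0.07 and 0.21. Each class holds only 2 or 4 libraries per group. The shares and medians over all genes within each class are not given here, so these values are not read as particular to the members. With the silent-gene mean as a covariate, the median was 0.09 for expert against novice, -0.07 for expert against naive and -0.10 for novice against naive. For Acsbg1, at 0.95 over all libraries, expert against novice gave 0.66 in the lower and 0.64 in the higher class, 0.41 with the silent-gene mean as a covariate and 0.23 with astrocyte markers as one. Acsl1 went from 0.28 in the lower to -0.70 in the higher class.

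**Figure D5:**
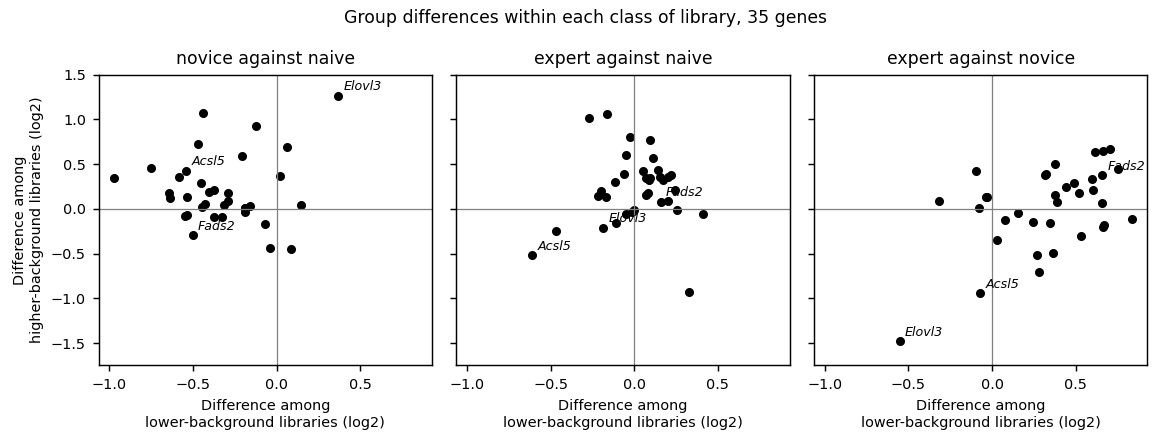
For each of the 35 genes, the log2 difference among libraries of lower background (horizontal axis) and among those of higher background (vertical axis), in the 3 comparisons. Most points for novice against naive lie left of 0, and 26 of 35 lie above 0, while Elovl3 stands apart at 0.37 and 1.26.

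Single libraries moved the medians. The novice against naive median lay between -0.39 (without naive 6) and -0.16 (without naive 2), and it was -0.18 without naive 4. The expert against naive median, 0.16 with all libraries, was -0.01 without expert 3, 0.00422 without naive 6, 0.03 without naive 5 and 0.06 without expert 2, and it was 0.26 without naive 2 and 0.25 without expert 4. The expert against novice median was 0.45 without expert 4. Without the libraries labelled novice 1 and novice 3, the medians were -0.19 for novice against naive and 0.25 for expert against novice, with 22 and 10 members lower.

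Other genes of the same pathways were examined from a list of 101, of which all were tested and 0 were called by limma in any comparison. In novice against naive 61 of 101 were lower (median -0.11), in expert against naive 46 (median 0.02) and in expert against novice 42 (median 0.15). At an unadjusted p under 0.05 there were 5, 2 and 15, where the shares of all genes were 4.60%, 2.86% and 10.9%. In novice against naive the smallest p-values were of Fads6, a desaturase family gene (-0.73), Acss2, which makes acetyl-CoA from acetate (-0.56), and Slc25a1, the mitochondrial citrate carrier (-0.63). Slc25a1 stood at 13.8 ± 4.57 FPKM in naive, 8.50 ± 2.83 FPKM in novice and 13.4 ± 5.76 FPKM in expert libraries (mean ± SD, n = 6).

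In expert against naive they were of Ptplad2, now Hacd4, a dehydratase family gene of elongation (-0.89), Pnpla2, which encodes adipose triglyceride lipase (0.63), and Acaa1a, a peroxisomal thiolase (-0.66). In expert against novice they included those of Ptplad2 (-1.27) and the lipid droplet gene Plin5 (-0.88). Ptplad2 had 0.719 ± 0.612 FPKM in expert and 3.08 ± 1.13 FPKM in novice libraries (mean ± SD, n = 6), with 1 expert library listed at 0.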

How the data were processed

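The authors deposited 1 table of FPKM values per gene and library, although its title speaks of normalized counts, and they used TopHat and Cufflinks on mouse build mm9, per the submitters' processing notes. Per the labels' protocols, stranded total RNA libraries were sequenced. Versions, options and annotation were not given in the sources used here. Of 23951 entries, 27 with dates in place of names were left out.

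The 21745 genes that reached 1 FPKM in 6 or more of the 18 libraries were fitted on log2(FPKM + 1) with limma 3.58.1 in R 4.3.3, with 1 mean per group, a mean-variance trend, two-sided tests and Benjamini-Hochberg adjustment over all of them (threshold 0.05). Fold changes on this scale understate those of low genes. Depth was approximated from the value of 1 fragment over 1100 olfactory receptor genes, so precision is lower in libraries where 1 fragment is worth more. The members and lists were chosen with earlier results of these data known. All members are named, with the 3 other pathway genes of smallest p per comparison (1 of these is not reported here), and Xist and Ddx3y as a check. Alternatives covered filters, pseudocounts, scalings, covariates, left-out libraries and background classes. A cut of 2 FPKM on the silent-gene mean left 5 libraries below it, none of them novice, so a cut at the gap (4 FPKM) was added after seeing the data.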

Additional observations from a re-analysis of the deposited data

Results flagged for a closer look

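In 4 of 105 sets of 6 libraries (a member in a group), 1 library stood further from the rest than Dixon's limit. Chance alone flags about 1 in 20 such sets where they are independent and normally distributed. Neither condition was tested for these FPKM values, and members vary together across libraries. Acsl1 in expert 5 was 16.5 FPKM, with the next expert library at 7.45 FPKM. Elovl2 in expert 3 was 19.2 FPKM, with the next at 11.8 FPKM. Elovl5 in expert 3 was 134 FPKM, with the next at 67.9 FPKM. Slc27a1 in expert 3 was 85.2 FPKM, with the next at 48.3 FPKM. Expert 3 was also the deepest library and the one of lowest silent-gene background.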

How the results depend on the processing

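No member was called under any alternative. Some alternatives cannot change a fold change, such as leaving out a library of the group not compared or fitting only the 2 groups compared. The share of changed signs is therefore no measure of how steady the directions are. Of 3947 member results under the alternatives, 350 had the opposite sign (110, 129 and 111). In 35 of these the fold change over all libraries was larger than its standard error. Those 35 and the counts that moved follow, and for each the cause was not tested. Values are in the order novice against naive, expert against naive, expert against novice unless named.

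Genes at an unadjusted p under 0.05 numbered 439, 332 and 1363 with a mean of at least 5 FPKM and 71, 64 and 292 with at least 20 FPKM, where fewer genes are tested. At 20 FPKM, 2 members were lower in expert against naive and 0 in expert against novice, with a median of 0.74 for the latter. Median ratio scaling left 15 members lower in expert against novice. Library quality weights gave 5394, 1106 and 6083 genes, and for expert against naive a median of -0.0057 with 19 members lower. With age as a covariate, 560 genes passed in novice against naive and 1389 in expert against novice.

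With the silent-gene mean as a covariate, 1176 genes passed in expert against naive (median -0.071, 23 members lower) and 1021 in expert against novice (16 members lower), where Acsl3 became -0.0018, Acly -0.030 and Lpl 0.11. With astrocyte markers as a covariate, 1621 genes passed in novice against naive and 1229 in expert against naive, and the latter had a median of -0.0074 with 18 members lower. In novice against naive Acsl3 became 0.13, Acsl6 0.066, Fasn 0.12, Fads1 0.088, Lpl -0.13, Cpt1a 0.087 and Acadm 0.010. In expert against novice, with a median of -0.013 and 18 members lower, Acsl3 became -0.15, Acsl6 -0.056, Acly -0.12, Fasn -0.14, Scd2 -0.013, Fads1 -0.15 and Lpl 0.25.

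Under 2 FPKM of background, expert against naive had 4 genes called and a median of -0.019 with 19 members lower, and Crat became -0.055. The comparisons with novice could not be made there. From 2 FPKM, 548 genes passed in novice against naive, where Cpt1a became 0.024, and 449 in expert against novice, with 14 members lower and with Acsl3 at -0.0089, Acly at -0.073 and Lpl at 0.18. In the lower class at the gap, 1220 genes passed in expert against naive, and Acsl1 became 0.28 in expert against novice. In the higher class 3, 4 and 5 genes were called, and 1369 and 1017 passed unadjusted in expert against naive and expert against novice. There novice against naive had a median of 0.12 with 9 members lower, and Acsl3 became 0.014, Acsl6 0.039, Fasn 0.17, Fads1 0.21, Fabp5 0.17, Fabp7 0.35, Cpt1a 0.29, Crat 0.020, Acadvl 0.12 and Hadha 0.13. In expert against novice 14 members were lower, with Acly at -0.18 and Lpl at 0.089. With the class as a covariate, 1442 genes passed in expert against naive.

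Leaving out each library in turn gave 650 (without naive 2) to 1779 (without naive 5) genes in novice against naive, 407 (without expert 6) to 965 (without expert 4) in expert against naive and 972 (without expert 3) to 4376 (without expert 4) in expert against novice. The median of expert against naive ran from -0.0065 (without expert 3) to 0.26, and its members lower from 8 to 19. Members lower in expert against novice ran from 8 to 14.

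Replicate numbers are shared between groups, but same-numbered libraries correlated from -0.36 to 0.46 (10 of 18 pairs over 0.1), and 1 library correlated best with its own number, so they were not paired. The replicate block cannot change the medians, since every group holds each number. It gave 1221, 761 and 2963 genes at an unadjusted p under 0.05 and 0 called. Depth, and in libraries of higher background the silent-gene level, limit Elovl3 and the other members of a few FPKM.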
